A study of Drosophila melanogaster with 2 samples.

Results

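The pericentric peaks of Max-GFP are the chromatin immunoprecipitation (ChIP-seq) peaks whose summits lie in the blocks of 2L, 3L, 3R and X next to the centromeres. A row of the authors' pooled peak list was counted as pericentric when its summit lay on 2L above 22.0 Mb, on 3L above 22.96 Mb, on 3R below 4.17 Mb or on X above 22.6 Mb of the fly assembly dm6, so the choice used position and no measured value. This gave 142 of the 30000 pooled peaks, with 58 on 2L, 37 on 3L, 14 on 3R and 33 on X. The other 23769 peaks of these 4 arms are called the rest below.

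The libraries came from whole Drosophila melanogaster embryos, males and females mixed, aged 0 to 24 h. All embryos were of a single transgenic strain, Max-GFP, that stably expresses the protein Max with GFP at its C terminus. The labels describe the precipitation as done with an anti-GFP antibody (the antibody field itself reads Max), from chromatin sheared by sonication to 200 to 800 bp. There is 1 group with 2 biological replicates, numbered 2 and 3, and no condition to compare it with, so the comparisons here are between places in the genome. The labels name neither the promoter that drives the fusion nor whether native Max is also made. In whole embryos, a weak peak in every cell and a strong peak in few cells cannot be told apart.

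Max is a transcription factor of the basic helix-loop-helix leucine zipper class that pairs with Myc, Mnt and related factors and binds E-boxes, above all CACGTG. Pericentric heterochromatin is the compact chromatin beside the centromeres, rich in transposons and satellite repeats, marked by methylated lysine 9 of histone H3 and bound by HP1. It still holds a small share of the protein-coding genes in flies, and several of them, light among the best known, are transcribed from within it. No chromatin mark was analysed here, so the label heterochromatin rests on position and sequence content alone.

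The blocks had the sequence content of that chromatin. Together they span 11.8 Mb, against 95.5 Mb for the rest. Annotated transposons covered 14.9% of their bases and 4.07% of the rest, and repeat-masked bases made up 40.3% and 17.5%. By block, transposons ran from 8.34% on 3R to 20.4% on 2L. The last 500 kb outside each border held 13.3% to 22.3%, so transposons did not set the blocks apart from their flanks. They held 109 protein-coding genes, or 9.26 per Mb, against 114 per Mb in the rest. Only 46.2% of the bases started a 50-base word found once in the genome, against 94.6%. A word from the other bases either matches more than one place or holds unknown bases of the assembly, and these were not counted apart.

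The sequences at the summits carry the few motif matches and the strongest peaks. They are printed from the RefSeq Release 6 genome in the gene's direction where a strand of minus is named, and otherwise on the plus strand, with capitals on CACGTG, on the DNA replication-related element (DRE) TATCGATA, or on TATAAA on either strand. Parts of longer untranslated stretches are left out. CACGTG was found within 50 bp of the summit of 4 members, at CycK, RpL5, CG32457 and CG40045, which are shown first. The CycK stretch is 2L:22130090-22130111 (minus), the RpL5 stretch 2L:22536584-22536605 (minus), the CG32457 stretch 3L:22982118-22982238 and the CG40045 stretch 3L:24030646-24030754.
CycK: gccaaaacCACGTGtaaatata
RpL5: ttctactcCACGTGattttaat
CG32457: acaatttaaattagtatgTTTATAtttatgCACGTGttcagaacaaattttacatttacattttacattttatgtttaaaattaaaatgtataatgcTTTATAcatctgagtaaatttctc
CG40045: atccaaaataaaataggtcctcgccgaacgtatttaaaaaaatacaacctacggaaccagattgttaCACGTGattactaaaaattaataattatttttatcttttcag

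The DRE, the core promoter element of the factor DREF, was found at 3 members, shown here from 2L:22124412-22124435 (at the 3′ ends of CG3651 and CycK), 2L:22757457-22757577 (upstream of CG40006) and 3L:27136518-27136541 (at the start of vtd).
CG3651 and CycK: ttctggaaTATCGATAgatataca
CG40006: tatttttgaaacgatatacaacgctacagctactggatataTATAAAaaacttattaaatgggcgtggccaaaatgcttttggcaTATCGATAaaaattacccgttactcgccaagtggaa
vtd: ttaaatgaTATCGATAatttgata

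The remaining summits shown are those of the other highest-scoring members of 3L, X and 3R and of lt, which hold neither CACGTG nor the DRE in the printed letters. They lie at 3L:23125837-23125957 (CG33217), 3L:23095352-23095425 (RpL10, minus), X:22837481-22837601 (inside fog and CG42346), 2L:22924721-22924794 (lt) and 3R:3733842-3733962 (Tim17b).
CG33217: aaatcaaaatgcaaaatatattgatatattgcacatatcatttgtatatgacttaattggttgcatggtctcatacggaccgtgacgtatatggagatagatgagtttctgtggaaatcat
RpL10: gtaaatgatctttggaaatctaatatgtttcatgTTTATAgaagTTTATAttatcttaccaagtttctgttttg
fog and CG42346: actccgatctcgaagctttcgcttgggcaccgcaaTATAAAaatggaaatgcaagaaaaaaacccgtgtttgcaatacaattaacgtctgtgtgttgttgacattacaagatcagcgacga
lt: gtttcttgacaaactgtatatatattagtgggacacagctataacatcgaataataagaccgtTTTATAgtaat
Tim17b: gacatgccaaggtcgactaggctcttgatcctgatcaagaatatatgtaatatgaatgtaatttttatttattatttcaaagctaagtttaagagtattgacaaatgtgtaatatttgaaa

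Strong pericentric peaks were few. Of the 142 members, 3 were in the list of pooled peaks that passed the authors' threshold on the irreproducible discovery rate (IDR), a measure of how well the ranks of peaks repeat between replicates. That list is the same as the 4712 pooled peaks with the highest scores, so being in it is a matter of the pooled score. That is 2.11% (95% Wilson interval 0.721 to 6.03), against 3806 of 23769 peaks in the rest, 16.0% (15.6 to 16.5), and 15.7% of all pooled peaks. The odds ratio was 0.113 (two-sided Fisher's exact test, p adjusted by Benjamini-Hochberg over 14 planned tests 7.61e-07). Peaks are not replicates, so this p reflects the counting of sites and says nothing of variation from one embryo collection to another. The difference also held with either replicate list alone, where 2 of 138 peaks of replicate 2 and 7 of 210 peaks of replicate 3 ranked in the uppermost 4712.

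The 3 peaks of the IDR list were at promoters, here summits within 500 bp of an annotated start of a protein-coding gene. The highest was at CycK, which codes for cyclin K, the partner of a kinase of the RNA polymerase II tail. It spans 2L from 22129885 to 22130320, with its summit 39 bp inside the start, in the 5′ UTR, and 2 bp from the middle of the CACGTG printed above. Its pooled score, the authors' measure by which the peaks of a list are ranked, was 172.7, at rank 1565 of 30000. Replicate 2 ranked it 1924 with a score of 96.5 and replicate 3 ranked it 1461 with 70.1. The replicates thus placed it alike, and it was the highest member in both lists.

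The second was at CG33217, on 3L from 23125679 to 23126114, with its summit 128 bp upstream of the start. Its pooled score was 114.2, at rank 3156, and the replicates placed it further apart, at 6375 in replicate 2 and at 1658 in replicate 3. The last was at RpL10, a protein of the large ribosomal subunit, on 3L from 23095194 to 23095629 with the summit in an intron, 59 bp inside the start. It scored 89.9, at rank 4503, just above the lowest score of the IDR list, 87.0, and ranked 3530 in replicate 2 and 3434 in replicate 3. No member of 3R or X was in that list.

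**Figure D1:**
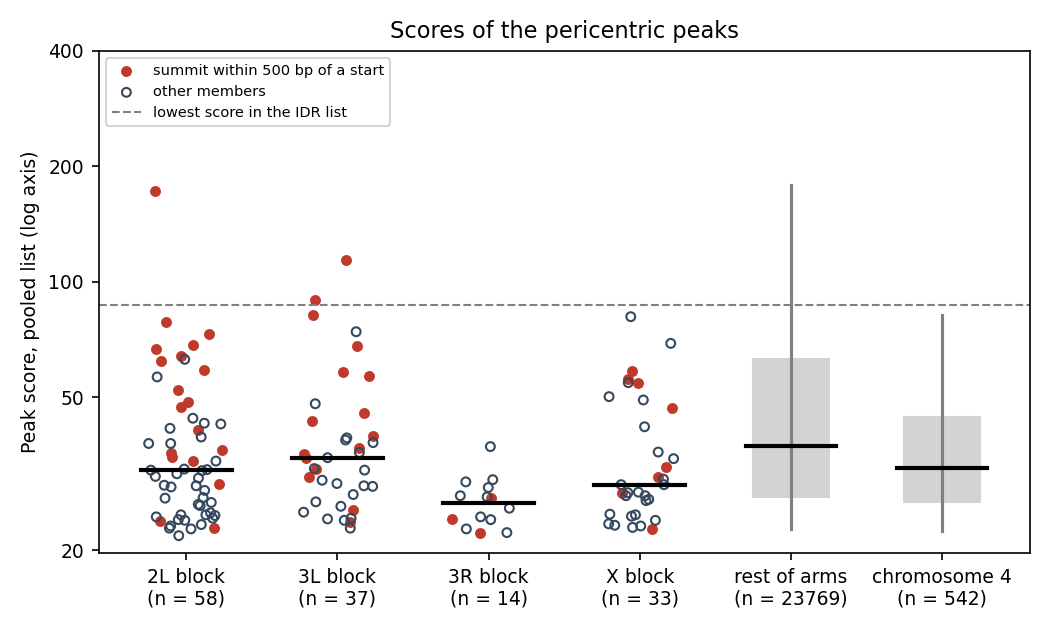
Pooled peak score (log axis) of each pericentric peak, by block. Filled points have their summit within 500 bp of a start, black bars are medians, and the grey boxes and lines give the middle 50% and the 5th to 95th percentile of the rest and of chromosome 4. Only 3 points, at 172.7, 114.2 and 89.9, lie above the dashed line at 87.0, the lowest score of the IDR list.

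Below that line the members crowded towards the end of the list. Their scores ran from 21.8 to 172.7 with a median of 30.7 (quartiles 25.2 and 41.8), against a median of 37.3 (27.5 and 63.0) in the rest. The median rank was 19392, against 14842. Of the members, 25 were among the first 10000 pooled ranks, 50 among the next 10000 and 67 among the last. The block medians were 32.3 on 2L, 34.7 on 3L, 26.5 on 3R and 29.6 on X, so 3R was lowest in its median as well as in its maximum of 37.2. All members were 436 bp wide with the summit at the midpoint, so width carries no information on them.

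Outside the IDR list the highest member was at RpL15, another protein of the large ribosomal subunit, with a pooled score of 81.7 and ranks of 6409 in replicate 2 and 4871 in replicate 3. It lies far inside 3L, from 27267361 to 27267796, and its summit is 323 bp inside the start, in the 5′ UTR. The highest of X, with 81.1 and ranks of 6916 and 4664, was in an intron shared by CG42346 and fog, which codes for a secreted signal for cell shape change in gastrulation. That summit is 1282 bp upstream of the nearest start, of fog. It was followed on X by FucTC, a fucosyltransferase gene, with 69.1, and by CG17167, with 58.5. On 2L the next after CycK were CG42748 with 78.4 and CG3651 with 72.9.

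The highest of 3R were weaker throughout. Its first was 953 bp upstream of Tim17b, a gene for a channel protein of the mitochondrial inner membrane, with a score of 37.2, at ranks 21663 and 20113 of the replicates. Its next were in introns of Gfat1, an enzyme of hexosamine synthesis, with 30.5, and of CG42402, with 30.1, and neither overlapped a peak of replicate 3.

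The blocks held few peaks per length. There were 12.1 pooled peaks per Mb, against 249 in the rest, a ratio of 20.6. Per Mb of bases whose 50-base word is unique, the values were 26.1 and 263, a ratio of 10.1, and per protein-coding gene 1.30 and 2.18, a ratio of 1.68. The sparsity of placeable sequence and of genes thus moved with the sparsity of peaks, and their part in it was not tested. The blocks differed among themselves, with 38.3 peaks per Mb on 2L, 35.0 on X, 7.18 on 3L and 3.36 on 3R, in the same order as their 24.4, 24.4, 7.38 and 2.64 genes per Mb except that 2L and X were level in genes.

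Members gathered at the outer edges of the blocks. Of the 142, 107 lay within 500 kb of the border and 127 within 1000 kb, with a median distance of 239.2 kb. On 2L the density fell from 194 peaks per Mb in the last 500 kb outside the border to 80.0, 32.0 and 4.00 in the next 500 kb bins inside it. Protein-coding genes in these bins fell too, from 59 to 23, 9 and 5. On 3L the peak density went from 144 to 42.0 and 6.00, with 61, 10 and 5 genes. On 3R it went from 298 to 28.0 in the first bin, with 66 and 6 genes. No peak of 3R lay deeper than 436.1 kb, and the annotation places 4 genes in the next bin and 1 gene further in. On X the peak density was 72.0 outside and 64.0 inside, with 36 and 22 genes. Inside, 83.9% of bases were uniquely placeable, against 38.7% just outside. The X border is thus no step in peaks per Mb of all sequence, but per placeable base peaks were fewer inside. The bin 1000 to 500 kb outside the X border had 14.0 peaks per Mb, with 20.4% of bases placeable. The part of genes and of placeable sequence in the changes at the borders was not tested.

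**Figure D2:**
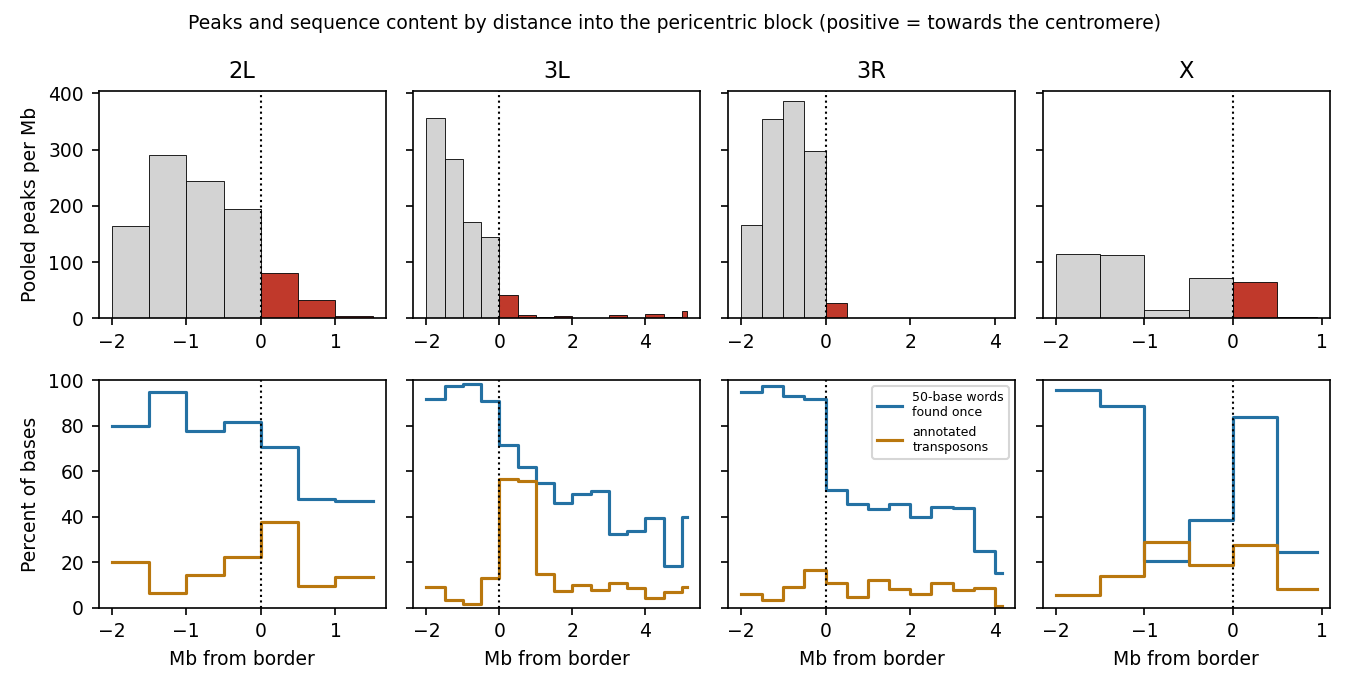
Pooled peaks per Mb (upper row) and percent of bases in unique 50-base words and in annotated transposons (lower row) in 500 kb bins by distance from the border of each block, in Mb, with positive distances towards the centromere and red bars for the pericentric bins. On 2L, 3L and 3R peaks become sparse inside the border, and on X the bins beside the border hold 72.0 and 64.0 peaks per Mb.

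The summits nearest the borders on either side are given as a description, with no test. On 2L the first summit inside, 18.1 kb from the border near tio, scored 32.4, and the last outside, 50.8 kb away near CG11634, scored 24.4. The pairs were 30.4 inside and 27.5 outside on 3L, 24.1 and 37.5 on 3R, and 30.6 and 24.4 on X. With the borders moved 500 kb towards the centromere, 35 members remained, none of them in the IDR list.

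The deepest members lay on 3L, where 13 of the 15 beyond 1000 kb were found. These included RpL15, named above, vtd, which codes for the kleisin subunit of cohesin, at 25.5, the helicase gene Dbp80 at 31.0, and 3 summits at l(3)80Fg, at 74.1, 43.4 and 38.1. The farthest, 5053 kb from the border beside l(3)80Fj, scored 34.7. Of these 15 peaks 9 overlapped a peak of replicate 2 and 13 a peak of replicate 3. Those at vtd and Dbp80 were matched in replicate 3 alone.

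The promoter share of pericentric summits could not be told apart from that of the rest, within a wide interval. Of the 142, 46 were promoter peaks, 32.4% (25.2 to 40.5), against 7768 of 23769, 32.7% (32.1 to 33.3). The odds ratio was 0.987 and the difference -0.287 percentage points (Fisher's exact test, adjusted p = 1.00), with a sign that turned under several alternatives. The 46 had a median score of 42.3 and the other members one of 28.9, and in the rest the medians were 53.8 and 33.2. Outside promoters, 49 of 96 members were in introns, 51.0% (41.2 to 60.8), against 54.1% in the rest (adjusted p = 0.774, Fisher's exact test), 32 were between genes, 8 in coding exons, 6 in 3′ UTRs and 1 in a 5′ UTR. The promoter and intron shares are the ones that were tested.

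As a set, pericentric promoter summits sat further into the gene, but their share upstream of the start was lower on 2L and 3L only. Of the 46, 18 were upstream of the nearest start, 39.1% (26.4 to 53.5), against 4720 of 7768 in the rest, 60.8% (59.7 to 61.8). The median position was 35.5 bp inside the start, against 44.0 bp upstream, written as -44.0. This test was chosen after the data were seen (odds ratio 0.415, Fisher's exact test, p adjusted over the 4 tests so chosen 0.00367). It did not pass without replicate 3, below the IDR list, without arm 3L or with the borders moved, where adjusted p ran from 0.0667 to 0.152. Without replicate 3 the shares were 47.9% and 60.8%, and without 3L they were 46.7% and 60.9%.

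Read by gene, peaks were less frequent in the blocks. Of the 109 protein-coding genes with a start there, 3 had an IDR peak at a promoter, 2.75% (0.940 to 7.78), against 2880 of 10904 genes in the rest, 26.4% (25.6 to 27.2), and 25.9% of all genes. The odds ratio was 0.0789 (Fisher's exact test, adjusted p = 1.03e-09). Any pooled peak was found at the promoters of 37, 33.9% (25.7 to 43.2), against 6214 in the rest, 57.0%, and 57.2% of all genes (odds ratio 0.388, Fisher's exact test chosen after the data were seen, adjusted p = 4.22e-06). That difference of -23.0 percentage points was -10.8 in the replicate 3 list alone and -9.74 with peaks below the IDR list alone, and passed in both. A further 60 genes had no pooled peak at a start or in the gene body.

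**Figure D3:**
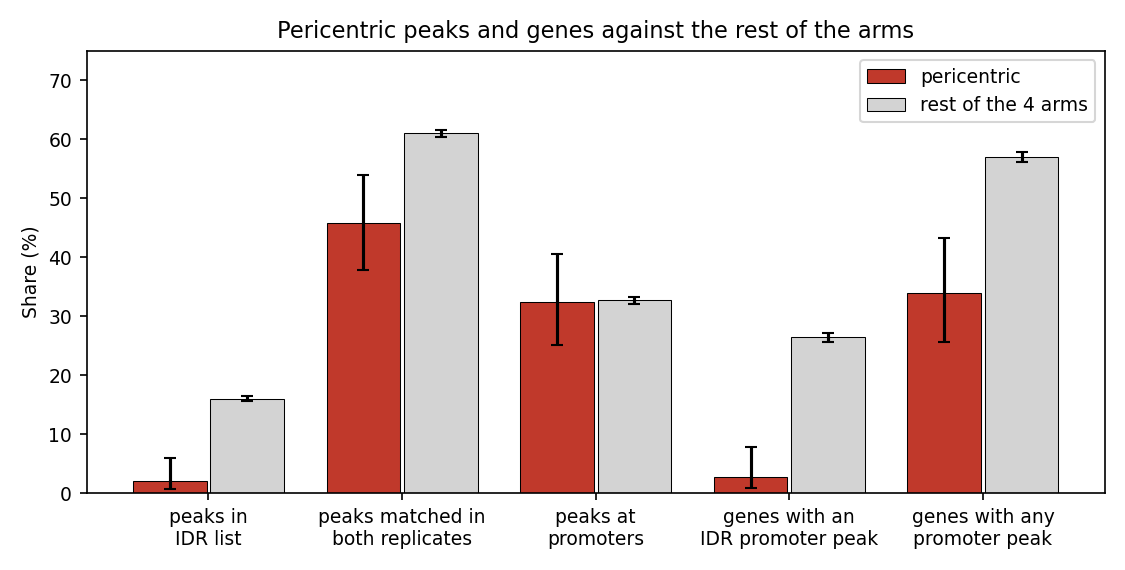
Share in percent of pooled peaks that are in the IDR list, matched in both replicates or at promoters, and of protein-coding genes with an IDR peak or any pooled peak at a start, in the blocks (red) and in the rest of the 4 arms (grey), with 95% Wilson intervals. Promoter shares are 32.4% and 32.7%, and the other shares are lower in the blocks.

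Genes long known to lie in heterochromatin were taken as a list of 28 names, of which 21, as written, named a gene with a start in a block. A listed gene that the annotation carries under another name is not among the 21. Of these, 9 had a pooled promoter peak and 0 an IDR promoter peak, beside 37 and 3 of the 109 genes. Those with one, by score, were RpL15 at 81.7, lt at 67.0, RpL5 at 62.3, stnA and stnB, which share starts and thus a peak, at 55.7, su(f) at 54.5, nrm at 36.8, Dbp80 at 31.0 and vtd at 25.5. The lt gene, a factor of vesicle transport named for its pale eye colour, has its summit 14 bp upstream of the start, and it ranked 16392 in replicate 2 and 3863 in replicate 3. RpL5, a protein of the large ribosomal subunit, has its summit 32 bp inside the start, ranked 5679 and 6856. It holds a CACGTG whose middle is 23 bp from the summit. The stn genes act in synaptic vesicle recycling, su(f) in forming mRNA 3′ ends, and nrm codes for a cell adhesion protein.

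Without a pooled promoter peak were cta, AGO3, Snap25, nvd, scro, Set1, Myo81F, Pzl, spok, Parp1, Alg-2 and fog. They include a G protein of gastrulation (cta), an Argonaute of the piRNA pathway (AGO3), a SNARE (Snap25), an enzyme of ecdysone synthesis (nvd) and a histone H3 lysine 4 methyltransferase (Set1). The distance from a start to the nearest pooled summit ran from 877 bp at scro to 3166826 bp at Myo81F. For Myo81F, Pzl, spok, Parp1 and Alg-2, all on 3R, it was 110759 bp or more. In the replicate 3 list a summit lay 501 bp from the start of Parp1, just outside the promoter window. For the others of these genes the nearest summit in that list was 36590 bp away or more. The genes for cytoplasmic ribosomal proteins were looked at after their values were seen, and RpL5 and RpL15 are also in the list above. All 4 in the blocks, RpL5, RpL10, RpL15 and RpL21, had a pooled promoter peak, that of RpL21 with a score of 64.2. Such a peak was at 33.9% of all block genes and 57.2% of all genes. Ribosomal protein genes outside the blocks were not counted, and 4 genes chosen in this way can show little. Other genes for basic cell functions went both ways, and those named are examples. Without one were mRpS5 of the mitochondrial ribosome, the translation factor gene eIF4B, the Mediator gene MED21 and Tim23 of mitochondrial protein import. CycK, Tif-IA, CkIIalpha and Vps11 had one. At mRpS5 the nearest summit to a start was 2 bp away in replicate 3 and 618 bp away in replicate 2.

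A single gene held 20 members, which was also noticed after the fact. CG42748, a gene of 35.0 kb on 2L beside CycK, had 15 of them in introns and 4 at its own starts, with scores from 22.8 to 78.4, and 12 were matched in both replicates. The next hosts, fog, CG17162, Clamp and CG42402, held 5 each. Intervals overlapped within such clusters, and the 142 members formed 123 runs of overlapping intervals, so neighbours are not independent. With 1 peak per run the IDR share and the matched share kept their direction and passed.

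The replicates agreed less on members than on the rest. A peak of each replicate list overlapped 65 of the 142 members by 1 bp or more, 45.8% (37.8 to 54.0), against 14503 of the rest, 61.0% (60.4 to 61.6). The odds ratio was 0.539 (Fisher's exact test, adjusted p = 0.00126). With peaks below the IDR list alone, the shares were 44.6% and 53.7% and Fisher's exact test did not pass (adjusted p = 0.116). With the borders moved inwards they were 34.3% and 61.0%, which passed. Among the first 10000 pooled ranks 24 of 25 members were matched in both, 96.0%, against 95.5% of the rest. In the next 10000 the shares were 48.0% and 62.1%, and in the last 25.4% and 24.6%.

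Of the other members, 34 were matched in replicate 2 alone, 32 in replicate 3 alone and 11 in neither. At promoters 34 of 46 were matched in both, 73.9%, and elsewhere 31 of 96, 32.3%. Over the 65 matched members Spearman's rho of the replicates' ranks was 0.392, against 0.726 over 14503 peaks of the rest, and below the IDR list it was 0.308 over 62 and 0.464 over 10715. These describe peaks that share libraries and, in part, intervals.

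**Figure D4:**
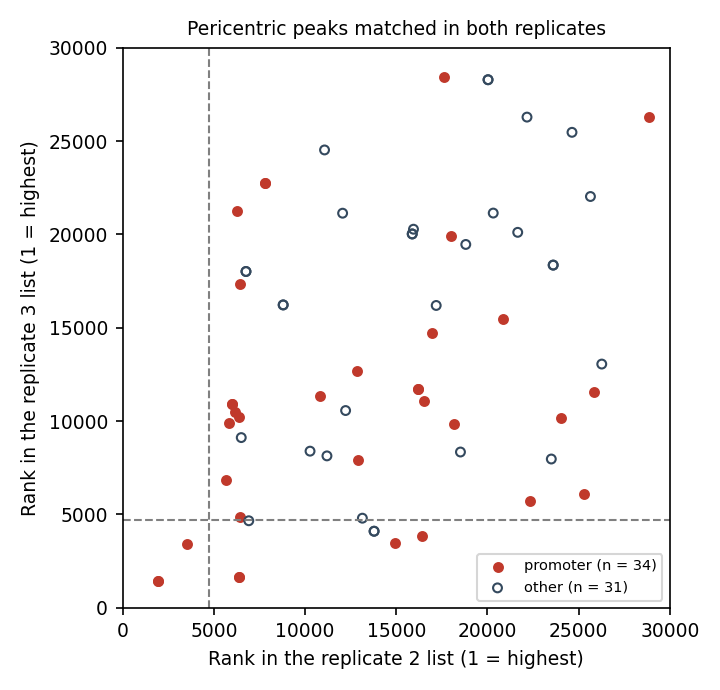
Rank in the replicate 2 list against rank in the replicate 3 list (1 is the highest score) for the 65 pericentric peaks matched in both, with filled points at promoters and dashed lines at rank 4712. CycK and RpL10 lie inside both lines, and CG33217 inside that of replicate 3 alone.

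The largest rank differences among matched members were at l(3)80Fg, with 25324 in replicate 2 and 6073 in replicate 3, at CG42748, with 22353 and 5721, and at Slmap, with 23505 and 7971. All of these ranked higher in replicate 3. The next was the reverse, at CG17167, with 6247 and 21252. Among the uppermost 4712 peaks, replicate 2 had CycK and RpL10, and replicate 3 had those and CG33217, CG3651, lt, l(3)80Fg and the shared intron of CG42346 and fog.

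Replicate 3 also had more peaks in the blocks. Of its own 30000 peaks 210 were pericentric, against 138 of the same number in replicate 2, a ratio of 1.52. Within 500 kb of the border the counts were 136 and 112, from there to 1000 kb 33 and 14, and beyond 1000 kb 41 and 12. Both lists hold the same number of peaks, so these counts give how each library spread its peaks and not how many it would yield. With 1 library for each replicate, a difference between embryos and a difference between libraries cannot be told apart.

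**Figure D5:**
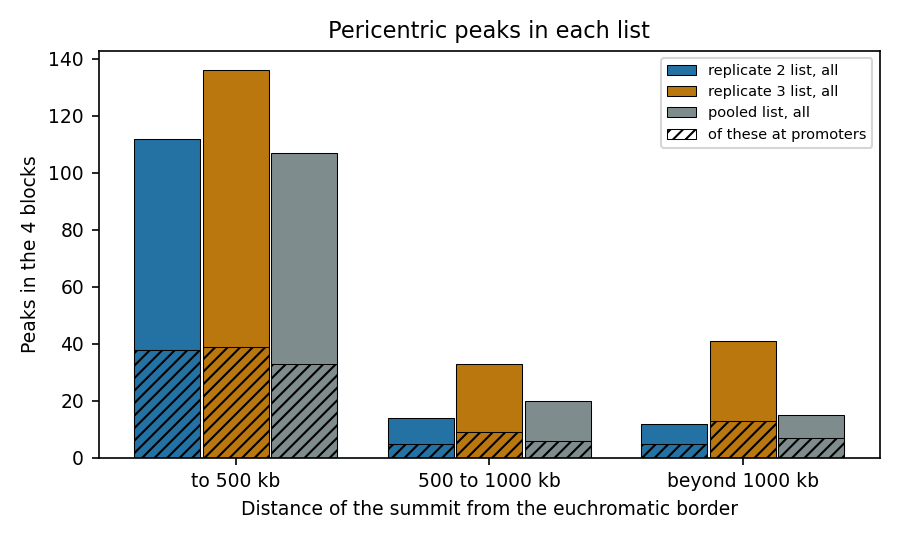
Number of pericentric peaks in the replicate 2, replicate 3 and pooled lists by distance of the summit from the border, with the hatched part at promoters. Beyond 1000 kb replicate 3 has 41 peaks, replicate 2 has 12 and the pooled list 15.

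By gene, a summit was at a start of 38 of the 109 genes in replicate 2, of 48 in replicate 3 and of 31 in both. The 17 found in replicate 3 alone included cta, Set1, vtd, ND-AGGG and CG12567, and for 10 of the 17 the nearest summit of replicate 2 was over 10 kb away. At Set1 the nearest summits were 87 bp from a start in replicate 3 and 376641 bp in replicate 2, at vtd 64 and 131053 bp, and at cta 9 and 12151 bp. The 7 found in replicate 2 alone included fog and nAChRalpha4, a subunit gene of the nicotinic acetylcholine receptor, and for 1 of them the other replicate's summit was over 10 kb away. For Set1 and cta no pooled summit was at a start.

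Transposons were under more of the members than of the rest. The summit lay in an annotated element for 15 of 142, 10.6% (6.51 to 16.7), against 119 of 23769, 0.501% (0.419 to 0.599). The odds ratio was 23.5 (Fisher's exact test chosen after the data were seen, adjusted p = 1.14e-14). As a share of bases, 11.1% of the members and 0.505% of the rest were transposon. Over the whole blocks and the whole rest the shares were 14.9% and 4.07%. In the first 500 kb inside the borders, where 107 of the 142 members lay, transposons were denser on 3 of the 4 arms. They covered 37.7% of the bases there on 2L, 56.4% on 3L and 27.7% on X, but 10.8% on 3R. On chromosome 4 transposons made up 15.8% of the bases of peaks and 24.8% of the sequence, so the trait is not particular to the members. That share was not tested against theirs. Of the 15, 5 were in 1360, 5 in INE-1, 2 in gypsy12 and 1 each in Cr1a, Tc3 and transib2. The highest was in 1360 in an intron of nAChRalpha4, with 48.1, and 4 of the 15 were matched in both replicates. With the borders moved inwards 1 of 35 members had such a summit and Fisher's exact test did not pass (adjusted p = 0.162).

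The members themselves lay in placeable sequence. On average 99.2% of their bases began a unique 50-base word, and in 131 all did. The lowest was a 1360 element near RpL10, at 57.8% with a score of 24.2, and 9 members were under 95%. Reads from the other repeats may not have been placed at all, so the absence of a peak there says nothing about binding. The sources used here do not say how reads that map to several places were treated.

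Motifs near summits gave no detectable difference for the E-box or the DRE. CACGTG was within 50 bp of 4 of 142 summits, 2.82% (1.10 to 7.02), against 1.89% of the rest (odds ratio 1.50, Fisher's exact test, adjusted p = 0.544). The DRE was at 3, 2.11% (0.721 to 6.03), against 1.22% (odds ratio 1.75, Fisher's exact test, adjusted p = 0.544). For both, the sign of the difference turned with a window of 100 bp. Among the summits in the IDR list 1 of 3 held CACGTG, against 3.28% of the rest, with adjusted p = 0.269 by Fisher's exact test, a number of peaks that can show little. None of the 3 held the DRE, against 3.36%, or the element Ohler 1, GGTCACAC, against 2.13%, and 1 held TATAAA, against 23.8%. Ohler 1 was at 0 of the 142 and at 0.930% of the rest, a difference that was not tested.

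The member with CACGTG nearest its summit was the one at CycK, and RpL5 was the other at a promoter. CG40045 has it in an intron with its middle 10 bp from the summit, at a score of 29.4. At CG32457 it lies between genes, with the summit 5464 bp upstream of the start, at 30.4. The summits with a DRE scored 39.4, 26.6 and 25.5, the last at vtd, 15 bp inside its start. So 2 of the 4 members with CACGTG were at promoters and the others were weak peaks away from any start.

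TATAAA on either strand was within 50 bp of 45 of the 142 summits, 31.7% (24.6 to 39.7), against 18.8% of the rest (odds ratio 2.01, Fisher's exact test chosen after the data were seen, adjusted p = 2.98e-04). Base composition moved with it: GC content around summits was 34.8% in the blocks and 39.2% in the rest, and 39.9% and 42.4% over the whole sequence. Its part in the result was not tested. On chromosome 4, where GC content around summits was 33.9%, TATAAA was at 155 of 542 summits, 28.6%, a share not tested against that of the blocks. In the replicate 3 list alone it was at 42 of 210 summits, against 14.6% of the rest, a difference of 5.35 percentage points in place of 12.9, which still passed (Fisher's exact test, adjusted p = 0.0390). With borders moved the shares were 31.4% and 18.8% (Fisher's exact test, adjusted p = 0.0790).

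Chromosome 4, the small arm that is also largely heterochromatic, was the nearest comparison. It carried 402 peaks per Mb, and 71 of its 80 genes had a pooled promoter peak, 88.8%, against the 33.9% of the blocks, a difference that was not tested. Its 542 peaks had a median score of 32.8, beside 30.7, and 24 of them were in the IDR list, 4.43% (2.99 to 6.50), against 2.11% of the members (odds ratio 0.466, Fisher's exact test, adjusted p = 0.544). Promoters made up 22.0% of its peaks (18.7 to 25.6), less than the 32.4% of the members (odds ratio 1.70, Fisher's exact test, adjusted p = 0.0397). No alternative setting was run for either comparison, and neighbouring peaks are not independent. So the blocks had few peaks per Mb where chromosome 4 had many, and the shares in the IDR list could not be told apart with these counts.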

How the data were processed

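Per the text deposited by the authors with the samples, narrowPeak lists were made from precipitated alignments against a control, for replicates 2 and 3, for the pooled replicates and as an IDR list, on dm6 and dm3. The control was not analysed here, and neither aligner nor peak caller is named in the sources used here. The deposited lists give a score for each peak, the −log10 of its q-value and the summit offset. Scores were used only to rank peaks within a list. The replicate and pooled lists hold 30000 peaks each, so their length says nothing of yield, and no reads, so depth is unknown.

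Summits were set against Ensembl release 115 and RefSeq Release 6, 1-based. Promoter summits lie within 500 bp of a protein-coding start. Words of 36 and 50 bases were counted over the genome on both strands. Shares were compared by two-sided Fisher's exact tests with Benjamini-Hochberg adjustment over 14 planned and, apart, 4 later tests, threshold 0.05, tested on simulated data. Wilson intervals (95%) cover counting error only. Members, gene lists and tests were chosen with earlier results of these data known. Named are the members of the IDR list, the highest 3 of each block, the listed heterochromatic genes and the 3 largest rank differences, and others where the text says so or a motif, transposon, depth or replicate count needed them. Python 3.11.15, pandas 2.3.3, numpy 2.4.6, scipy 1.17.1 and matplotlib 3.10.9 were used.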

Additional observations from a re-analysis of the deposited data

Results flagged for a closer look

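The older assembly dm3 carries heterochromatin sequences named 2LHet, 3LHet, 3RHet and XHet apart from its arms, while the comparisons above used dm6 alone. Peaks on them were not placed on dm6. They may be sites already counted in the blocks and are not added to the members. The authors' dm3 lists had peaks on them, 37 in the pooled list, 38 in the replicate 2 list and 60 in the replicate 3 list, of 30000 each, and 0 in the IDR list. No control list was analysed here to set beside them. The pooled peaks were split into 1 on 2LHet, 9 on 3LHet, 15 on 3RHet and 12 on XHet, and the highest, on 3LHet, had a score of 82.2 at rank 5053. In dm6 the member at RpL15 on 3L scored 81.7. The highest on XHet scored 58.5, as did the member at CG17167 on X. Whether these are the same sites was not tested. The counts of replicates 2 and 3 were 8 and 23 on 3LHet, 17 and 20 on 3RHet, and 13 and 14 on XHet.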

How the results depend on the processing

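Of 113 values under alternatives, 95 kept their direction and side of the threshold, 7 lost their call and 11 changed sign. The comparisons with chromosome 4 are not among them. Differences are in percentage points, pericentric minus rest. The promoter share, -0.287, became 4.46 with borders moved 500 kb inwards, 0.236 to 1.09 with each replicate alone, 0.0438 with a window of 1000 bp, 3.38 below the IDR list, 2.07 with 1 peak per overlapping run, 1.50 without 3R and 2.61 without X, and passed under none of these. With motif windows of 100 bp TATAAA in the IDR list became -3.69, CACGTG -0.734 and the DRE -0.189. Below the IDR list the matched share was -9.07 and the upstream share -14.2, and neither passed. The upstream share did not pass with borders moved (-22.3), in replicate 2 alone (-12.9, against -16.0 in replicate 3 alone, which passed) or without 3L (-14.2), and with borders moved neither transposons (2.36) nor TATAAA (12.6) passed. Borders moved inwards leave no IDR member, so the shares within that list have no value there. Causes were not tested. The IDR shares of peaks and of genes and the pooled gene share passed under every alternative run, with the IDR peak share at -7.36 in the higher-scoring 50% of that list. TATAAA in replicate 3 alone was 5.35, which passed. Tests within the IDR list rest on 3 members, and depth is unknown.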
